A study of Mus musculus with 12 samples.

Results

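Genes of extracellular nucleotide and adenosine signaling were described in macrophages exposed to IFNβ: the ATP-gated channels P2rx4 and P2rx7, the nucleotide receptors P2ry6, P2ry12, P2ry13 and P2ry14, the ectonucleotidases Entpd1 and Nt5e, and the adenosine receptors Adora2a and Adora2b. They were taken by gene symbol, 10 genes of the 56748 in the count matrix, and all 10 passed the filter on low counts that left 15033 genes for testing.

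ATP that leaves stressed or dying cells opens P2X channels, and ATP, ADP, UDP and UDP-sugars act on P2Y receptors, which couple to G proteins. CD39 (Entpd1) on the cell surface turns ATP and ADP into AMP, and CD73 (Nt5e) turns AMP into adenosine. Adenosine then acts on the receptors encoded by Adora2a and Adora2b, which raise cAMP and are known for restraining inflammatory responses of macrophages, whereas P2X7 is known for triggering the NLRP3 inflammasome.

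The cells were bone marrow-derived macrophages (BMDM) of C57BL/6J mice, grown with M-CSF at 20 ng/mL and then given IL4 (10 ng/mL, 48 hours) to make them M2-like, which all 4 conditions share. They then spent 72 hours in plain medium (untreated control), in supernatant of YUMM5.2 eGFP cells (eGFP supernatant), in supernatant of YUMM5.2 Ifnb1eGFP cells (Ifnb1eGFP supernatant) or with recombinant IFNβ (rIFNβ), with 3 libraries per condition. YUMM5.2 is a mouse melanoma line, and the donor cells of both supernatants carried a Dox-inducible construct and had 72 hours of Dox at 1 µg/mL, so that donor medium and any Dox carried over belong to both supernatants but not to the other conditions. IFNβ was set to 1500 pg/mL in Ifnb1eGFP supernatant and rIFNβ alike, and eGFP supernatant was diluted at the ratio used for Ifnb1eGFP supernatant. These are cultured macrophages without the cells of a tumor, and the age of the marrow donors is not given for this experiment in the sources used here.

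Libraries held between 31526034 and 45348457 counts. Levels are given as CPM, counts per 1000000 of the TMM-normalized total, with the mean ± SD over 3 libraries. Among markers of the cell type, Adgre1 (F4/80) averaged 1496 to 1775 CPM and Csf1r 1045 to 1145 CPM over the conditions, and Mrc1, a marker of IL4-treated macrophages, 660 to 825 CPM, but Arg1, another such marker, was at 0.261 to 0.662 CPM. Of the 8 macrophage markers 4 rose and 3 fell for Ifnb1eGFP against eGFP supernatant, Fcgr1 most among the rises (from 83.0 to 1199 CPM) and Itgam (from 1620 to 409 CPM), Lyz2 (from 12396 to 4111 CPM) and Cd14 (from 316 to 184 CPM) being lower. The summed CPM of 8 genes of the IFN response, which checks the treatment, was 93.8 to 142 in untreated control, 10450 to 11650 in Ifnb1eGFP supernatant and 11110 to 11650 with rIFNβ. In eGFP supernatant it was 169.8 and 97.4 in replicates 1 and 3 but 769 in replicate 2, so the calls of the 10 genes against eGFP supernatant were repeated without that library. In bulk RNA, fewer cells of a type and less RNA per cell cannot be told apart.

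In both IFNβ comparisons, 6 of the 10 genes rose and 2 fell, called at adjusted p ≤ 0.05 by edgeR's quasi-likelihood test. P2rx4, P2rx7, P2ry12, P2ry13, P2ry14 and Entpd1 rose, Adora2a and Adora2b fell, and P2ry6 and Nt5e did not pass. Among all genes tested for Ifnb1eGFP against eGFP supernatant, 30.1% were higher and 25% lower, and for rIFNβ against untreated control 30.7% and 24.6%. The median log2 fold change of the 10 genes was 0.34 for Ifnb1eGFP against eGFP supernatant (0.03 over all genes tested) and 0.46 for rIFNβ against untreated control (0.04). At the stricter thresholds of the study, 2 or more log2 units either way with adjusted p no higher than 0.01, P2ry12 and P2ry14 passed in each comparison, where 5.39% and 5.77% of all genes passed. Without eGFP supernatant replicate 2, 8 genes were still called for Ifnb1eGFP against eGFP supernatant. Their log2 fold changes were then 0.54 for P2rx4, 0.33 for P2rx7, 0.26 for Entpd1, 2.41 for P2ry12, 0.83 for P2ry13 (adjusted p = 0.026), 2.88 for P2ry14, -1.26 for Adora2a (adjusted p = 0.047) and -0.59 for Adora2b (adjusted p = 0.025).

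**Figure D1:**
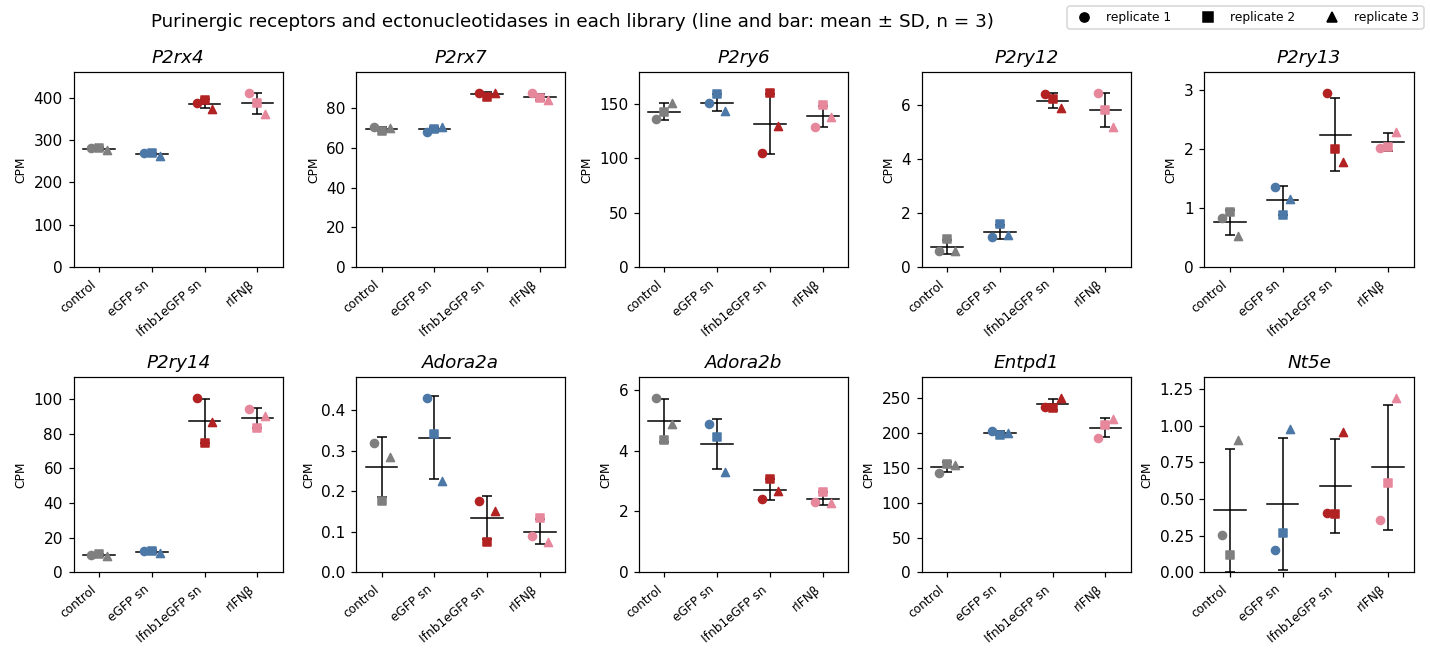
Level of each of the 10 genes in each of the 12 libraries (y axis, CPM from 0) by condition (x axis; sn, supernatant). Points are libraries with the replicate number as symbol, and the line and bar are the mean ± SD of 3 libraries; P2ry12 and P2ry14 stood far higher in both conditions with IFNβ, and Nt5e was highest in replicate 3 of all 4 conditions.

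P2ry14 and P2ry12, which changed most, lie with P2ry13 in 1 stretch of chromosome 3, where P2ry14 (59021276 to 59061134), P2ry13 (59114539 to 59118304) and P2ry12 (59123682 to 59170429) lie side by side on the minus strand in GRCm39. All 3 are protein-coding genes within Med12l, which is on the other strand and had 9 to 33 counts in each library. The bases before their annotated starts are shown because these neighbours rose together. They come from RefSeq on GRCm38.p6 and run 5′ to 3′ on the minus strand up to the start site: chr3:59262986-59263235 for P2ry12, chr3:59210883-59211132 for P2ry13, and chr3:59153493-59153742 for the most upstream of the 4 starts of P2ry14. Capitals mark the only match found, AGGAAGT, a spelling of the PU.1 site that was chosen after the sequences were seen.
P2ry12: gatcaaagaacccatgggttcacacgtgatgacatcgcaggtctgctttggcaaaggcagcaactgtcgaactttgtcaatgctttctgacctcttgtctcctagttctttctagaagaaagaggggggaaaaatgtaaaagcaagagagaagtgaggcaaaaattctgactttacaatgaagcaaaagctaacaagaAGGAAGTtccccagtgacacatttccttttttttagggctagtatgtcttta
P2ry13: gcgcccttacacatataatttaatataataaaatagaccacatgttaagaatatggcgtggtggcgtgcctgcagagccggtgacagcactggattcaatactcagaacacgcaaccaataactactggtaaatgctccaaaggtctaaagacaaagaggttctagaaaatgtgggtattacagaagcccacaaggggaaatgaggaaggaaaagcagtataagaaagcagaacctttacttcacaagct
P2ry14: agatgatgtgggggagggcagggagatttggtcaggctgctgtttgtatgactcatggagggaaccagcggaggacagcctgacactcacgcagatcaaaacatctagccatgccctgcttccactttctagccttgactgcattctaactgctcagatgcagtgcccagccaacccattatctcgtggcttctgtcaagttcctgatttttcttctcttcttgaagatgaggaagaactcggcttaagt

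Windows of 300 bases around the start were searched on both strands for an ISRE-like motif (GAAA and GAAA with any 2 bases between), which 3.44% of 32851 RefSeq promoters held, and for a GAS-like motif (TTCNNNGAA), which 8.3% held. Neither was in any window of the 8 genes with a RefSeq entry (P2ry6 and Adora2a had none here), the 4 windows of P2ry14 included. The PU.1-like AGGAAGT was in 9.35% of promoters and, among these genes, 52 bases before the start of P2ry12 and, as its reverse complement, just after the second start of P2rx7. GGAA and GAAA with any 2 bases between, an EICE-like spelling added together with it and overlapping the ISRE-like one, was in 2.72% of promoters and in none of these windows. A match is a description of letters and not a bound site, and these windows leave out more distant sequence.

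P2ry14 encodes a receptor for UDP-glucose and other UDP-sugars. It was at 10.2, 10.7 and 9.53 CPM in untreated control and 12.5, 12.5 and 11.2 CPM in eGFP supernatant, against 101, 74.9 and 86.9 CPM in Ifnb1eGFP supernatant and 94.5, 83.1 and 90.3 CPM with rIFNβ. Every library with IFNβ was far above every library without it. It rose 7.25-fold for Ifnb1eGFP against eGFP supernatant (log2 fold change 2.86, SE 0.10, adjusted p = 2.0e-09) and 8.79-fold with rIFNβ (3.14, SE 0.11, adjusted p = 1.1e-09).

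P2ry12 encodes the ADP receptor that antiplatelet drugs block and that marks microglia. It was at 0.604, 1.05 and 0.615 CPM in untreated control, 1.14, 1.58 and 1.18 CPM in eGFP supernatant, 6.42, 6.23 and 5.89 CPM in Ifnb1eGFP supernatant and 6.47, 5.82 and 5.21 CPM with rIFNβ. These levels rest on 19 to 36, 45 to 65, 251 to 271 and 206 to 259 counts per library, and the conditions with and without IFNβ did not overlap. P2ry12 rose 4.74-fold for Ifnb1eGFP against eGFP supernatant (log2 fold change 2.24, SE 0.18, adjusted p = 1.2e-06) and 7.70-fold with rIFNβ (2.94, SE 0.20, adjusted p = 2.3e-07). Its highest level among libraries without IFNβ was in eGFP supernatant replicate 2.

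The gain of P2ry12 was not shared by Tmem119, Sall1 or Siglech, which also mark microglia. Tmem119 averaged 5.88 and 5.07 CPM in untreated control and eGFP supernatant and 1.58 and 1.59 CPM in Ifnb1eGFP supernatant and with rIFNβ. Sall1 had at most 4 counts in any library and Siglech at most 1. Of the 5 markers of megakaryocytes and platelets, cells that also express P2ry12, 0 of 3 tested rose for Ifnb1eGFP against eGFP supernatant and 1 fell. The summed platelet marker level was 171 to 198 CPM in untreated control, 267 to 310 CPM in eGFP supernatant, 141 to 245 CPM in Ifnb1eGFP supernatant and 149 to 209.6 CPM with rIFNβ. Nearly all of this sum was Pf4, the marker that fell, which averaged 184 to 288 CPM over the conditions. Itga2b and Ppbp averaged at most 0.625 and 0.626 CPM in any condition. Gp9 had at most 3 counts in any library and Gp1bb at most 1. The part of these cells in the level of P2ry12 was not tested.

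P2ry13 encodes another ADP receptor. It was at 0.827, 0.937 and 0.520 CPM in untreated control, 1.36, 0.877 and 1.15 CPM in eGFP supernatant, 2.96, 2.01 and 1.78 CPM in Ifnb1eGFP supernatant and 2.02, 2.05 and 2.30 CPM with rIFNβ, from 22 to 117 counts per library. The levels with IFNβ were again above all those without it, by a smaller factor than for both neighbours. P2ry13 rose 1.98-fold for Ifnb1eGFP against eGFP supernatant (log2 fold change 0.99, SE 0.25, adjusted p = 0.0055) and 2.81-fold with rIFNβ (1.49, SE 0.26, adjusted p = 0.00051). Med12l, which overlaps all 3 genes, changed by 0.69 on the log2 scale (adjusted p = 0.035) and 0.81 in these comparisons, and its whole count was below that of P2ry14 in every library. In untreated control, where P2ry12 had 19 to 36 counts and P2ry13 22 to 32, Med12l had 9 to 17. The strand setting used for counting is not given in the sources used here.

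P2ry6 (chromosome 7, 100585308 to 100624173, minus strand) encodes the receptor for UDP, which is known for driving phagocytosis, and was the only one of the 4 P2Y receptors that did not pass the test. It was at 136, 142 and 151 CPM in untreated control, 151, 159 and 144 CPM in eGFP supernatant, 105, 160.3 and 129 CPM in Ifnb1eGFP supernatant and 129, 149 and 138 CPM with rIFNβ. Its ranges overlapped in every comparison, and its spread was widest in Ifnb1eGFP supernatant (132 ± 27.5 CPM). The log2 fold change was -0.20 (SE 0.12, adjusted p = 0.18) for Ifnb1eGFP against eGFP supernatant and -0.05 (SE 0.12, adjusted p = 0.77) with rIFNβ. Ifnb1eGFP supernatant replicate 2 decided the first of these, since without it the value was -0.36 with an adjusted p of 0.0052.

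Both P2X channels rose by a small amount with little spread. P2rx4, a channel with high affinity for ATP, was at 282, 280.5 and 276 CPM in untreated control, 269, 268 and 263 CPM in eGFP supernatant, 388, 395 and 374 CPM in Ifnb1eGFP supernatant and 411, 388 and 361 CPM with rIFNβ. It rose 1.45-fold for Ifnb1eGFP against eGFP supernatant (log2 fold change 0.53, SE 0.05, adjusted p = 2.6e-06) and 1.38-fold with rIFNβ (0.47, SE 0.05, adjusted p = 7.0e-06). P2rx7, which opens only at high ATP, was at 70.4, 68.7 and 70.0 CPM in untreated control, 68.2, 69.5 and 70.7 CPM in eGFP supernatant, 87.8, 85.8 and 87.8 CPM in Ifnb1eGFP supernatant and 87.5, 85.3 and 84.2 CPM with rIFNβ. For both genes every library with IFNβ lay above every library without it. P2rx7 rose 1.25-fold (log2 fold change 0.33, SE 0.03, adjusted p = 9.0e-06) and 1.23-fold (0.30, SE 0.03, adjusted p = 1.9e-05). P2rx7 (122781942 to 122830400) and P2rx4 (122845541 to 122867803) are neighbours on the plus strand of chromosome 5 in GRCm39.

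The ectonucleotidases differed in level and in response. Entpd1, on chromosome 19 (40600810 to 40731585, plus strand), was at 143, 156 and 154 CPM in untreated control, 203, 198 and 199.6 CPM in eGFP supernatant, 237, 235 and 249.9 CPM in Ifnb1eGFP supernatant and 192, 211 and 219 CPM with rIFNβ. All libraries of the other 3 conditions were above untreated control, and all of Ifnb1eGFP supernatant were above the rest. Entpd1 rose 1.20-fold for Ifnb1eGFP against eGFP supernatant (log2 fold change 0.27, SE 0.05, adjusted p = 0.0014) and 1.38-fold with rIFNβ (0.46, SE 0.05, adjusted p = 2.1e-05). A processed pseudogene within it, Gm8783, had 200 to 342 counts per library, against 4491 or more for Entpd1.

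Nt5e, on chromosome 9 (88209089 to 88254146, plus strand), was close to the limit of detection. It had 8, 4 and 38 counts in untreated control, 6, 11 and 39 in eGFP supernatant, 16, 16 and 44 in Ifnb1eGFP supernatant and 12, 27 and 47 with rIFNβ. The third replicate was the highest in all 4 conditions, with 0.899, 0.979, 0.956 and 1.19 CPM in that order, while the others ran from 0.117 to 0.607 CPM. The log2 fold change was 0.34 (SE 0.78, adjusted p = 0.73) for Ifnb1eGFP against eGFP supernatant and 0.71 (SE 0.78, adjusted p = 0.47) with rIFNβ, so that a difference was not detectable at this depth and spread. The summed level of 4 markers of fibroblasts, cells that are rich in CD73, was highest in the first replicate of each condition (77.6, 64.1, 75.7 and 73.6 CPM). In the third it was 51.0, 52.4, 64.2 and 58.4 CPM. The part of these cells in the level of Nt5e was not tested.

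Both adenosine receptors fell. Adora2b, the receptor with low affinity for adenosine (chromosome 11, 62139804 to 62157279, plus strand), was at 5.72, 4.33 and 4.87 CPM in untreated control, 4.88, 4.46 and 3.29 CPM in eGFP supernatant, 2.40, 3.08 and 2.67 CPM in Ifnb1eGFP supernatant and 2.31, 2.65 and 2.27 CPM with rIFNβ. Libraries with and without IFNβ did not overlap, although eGFP supernatant replicate 3 and Ifnb1eGFP supernatant replicate 2 lay close together. It was 1.55-fold lower in Ifnb1eGFP than in eGFP supernatant (log2 fold change -0.63, SE 0.16, adjusted p = 0.0067) and 2.05-fold lower with rIFNβ than in untreated control (-1.04, SE 0.17, adjusted p = 0.00024).

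Adora2a, the receptor with high affinity (chromosome 10, 75152560 to 75170628, plus strand), had 10, 6 and 12 counts in untreated control, 17, 14 and 9 in eGFP supernatant, 7, 3 and 7 in Ifnb1eGFP supernatant and 3, 6 and 3 with rIFNβ. Its level was 0.259 ± 0.0743 CPM in untreated control and 0.332 ± 0.102 CPM in eGFP supernatant (SD, n = 3). It was 0.134 ± 0.0534 CPM in Ifnb1eGFP supernatant and 0.0999 ± 0.0310 CPM with rIFNβ. Within each IFNβ comparison the CPM ranges did not overlap. Across them they did, since untreated control replicate 2 (0.176 CPM) lay just below Ifnb1eGFP supernatant replicate 1 (0.177 CPM). The log2 fold change was -1.28 (SE 0.40, adjusted p = 0.017) for Ifnb1eGFP against eGFP supernatant and -1.33 (SE 0.44, adjusted p = 0.024) with rIFNβ. These calls rest on few counts. With DESeq2 the adjusted p was 0.065 and 0.0795, and the first call was lost without eGFP supernatant replicate 1 (adjusted p = 0.074) or Ifnb1eGFP supernatant replicate 2 (0.064). The second was lost without untreated control replicate 1 (0.074) or 3 (0.071) and without rIFNβ replicate 1 (0.0665) or 3 (0.082). Of 5 neutrophil markers S100a8 alone was tested, and it fell from 4.49 ± 0.408 CPM in eGFP supernatant to 0.439 ± 0.0824 CPM in Ifnb1eGFP supernatant and from 5.03 ± 0.736 CPM in untreated control to 0.272 ± 0.197 CPM with rIFNβ. The other 4, S100a9, Ly6g, Elane and Mpo, had at most 10 counts in any library, and Ly6g and Mpo were at 0 in all libraries without IFNβ. Of 5 dendritic cell markers 2 were tested, and Zbtb46 fell from 1.40 ± 0.206 to 0.277 ± 0.0279 CPM and Clec9a from 0.383 ± 0.0581 to 0.128 ± 0.0662 CPM in Ifnb1eGFP supernatant. With rIFNβ against untreated control Zbtb46 fell as well (log2 fold change -2.22, adjusted p = 4.8e-06 by edgeR). Clec9a was not called there (-0.22, adjusted p = 0.63 by edgeR). The part of these cells in the results for Adora2a and Adora2b was not tested.

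**Figure D2:**
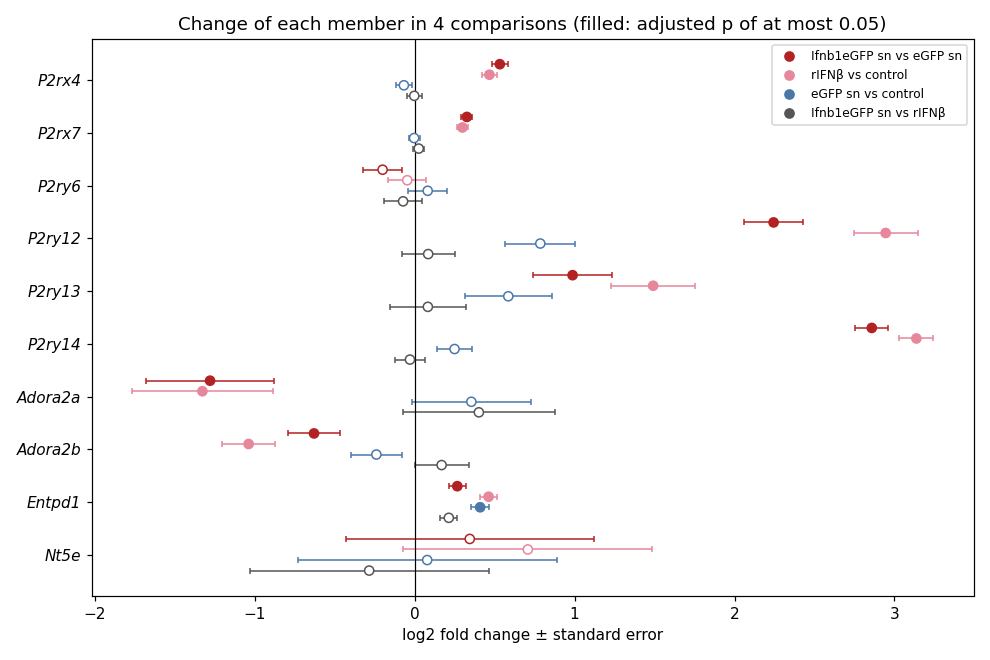
Log2 fold change (x axis, bars are the standard error) of each gene (y axis) in 4 comparisons of 3 libraries against 3, with filled points where adjusted p ≤ 0.05. The filled points of both IFNβ comparisons lie right of 0 for 6 genes and left of 0 for Adora2a and Adora2b, and Entpd1 has the only filled point for eGFP supernatant against untreated control.

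Supernatant without IFNβ changed 1 of the 10 genes, where 0.299% of all genes tested were called. Entpd1 was 1.33-fold higher in eGFP supernatant than in untreated control (log2 fold change 0.41, SE 0.05, adjusted p = 0.0092). Without untreated control replicate 1 (adjusted p = 0.052) or eGFP supernatant replicate 1 (0.053) this call was lost, and without eGFP supernatant replicate 2 it held (log2 fold change 0.42, adjusted p = 0.047). P2ry12 differed by 0.78 on the log2 scale (adjusted p = 0.25), which was 0.62 without eGFP supernatant replicate 2. P2ry13 had 0.58 (adjusted p = 0.64) and P2ry14 0.25 (adjusted p = 0.60), and the other genes ran from -0.24 to 0.35. This comparison shares its eGFP supernatant libraries and its untreated control libraries with the 2 above.

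Between the sources of IFNβ, Ifnb1eGFP supernatant and rIFNβ, 0 of the 10 genes were called by edgeR's quasi-likelihood test, where 0.16% of all genes were. Entpd1 came closest, at 241 ± 8.03 CPM against 208 ± 13.8 CPM (log2 fold change 0.21, SE 0.05, adjusted p = 0.30, unadjusted p = 0.0022), and it was the only 1 at an unadjusted p under 0.05. It was called by DESeq2 (log2 fold change 0.23, adjusted p = 0.029) and without Ifnb1eGFP supernatant replicate 2 (adjusted p = 0.048). The log2 fold changes of the other 9 genes ran from -0.28 to 0.40, with P2ry12 at 0.08 (SE 0.17) and P2ry14 at -0.03 (SE 0.09).

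An interaction term compared the effect of IFNβ within supernatant with its effect in plain medium. It was called for 0 of the 10 genes and for 0% of all genes tested, with 2 of the 10 and 661 of 15033 at an unadjusted p under 0.05. These 2 were P2ry12 (difference in log2 fold change -0.70, SE 0.27, unadjusted p = 0.026) and Entpd1 (-0.20, SE 0.08, unadjusted p = 0.027), each with an adjusted p of 0.93 by edgeR. A smaller effect of IFNβ within supernatant was therefore not shown for either gene.

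To compare levels between genes, CPM was divided by the exon length of each gene. In untreated control P2rx4 was highest at 35.9 ± 0.386 CPM per kb, followed by P2ry6 (21.96 ± 1.14) and Entpd1 (21.2 ± 0.976), which did not differ beyond their spread. P2rx7 (7.14 ± 0.0916), Adora2b (2.69 ± 0.379) and P2ry14 (0.904 ± 0.0528) came next, then P2ry12 (0.236 ± 0.0800) and P2ry13 (0.230 ± 0.0653), which overlapped. Adora2a (0.0493 ± 0.0141) and Nt5e (0.0483 ± 0.0476) were lowest and overlapped as well. In Ifnb1eGFP supernatant, P2ry14 (7.78 ± 1.14 CPM per kb) overlapped P2rx7 (8.93 ± 0.120), P2ry12 (1.93 ± 0.0849) was above Adora2b (1.47 ± 0.184), and Entpd1 (33.8 ± 1.13) was above P2ry6 (20.2 ± 4.23). Of the enzymes, CD39 transcripts were thus abundant in every condition and CD73 transcripts scarce.

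**Figure D3:**
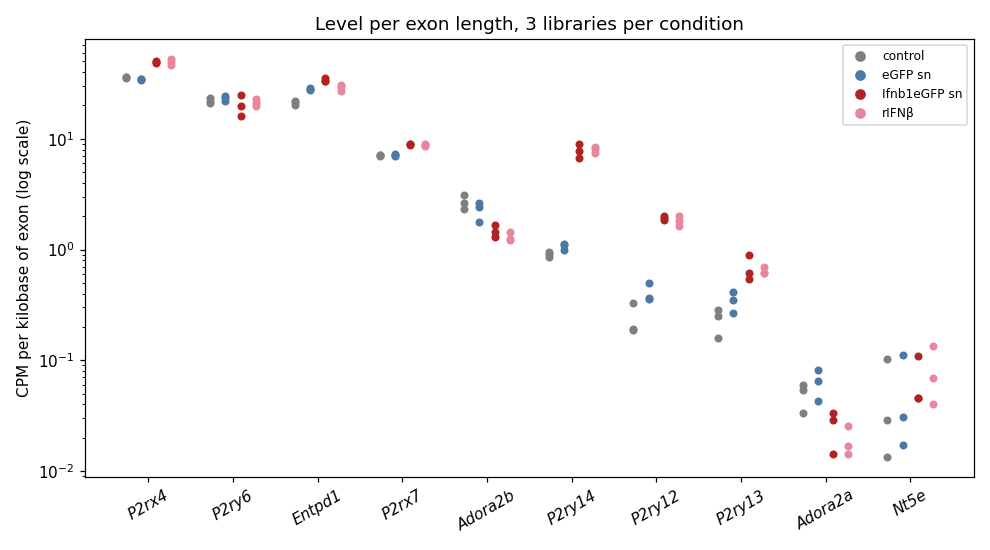
Level of each gene per exon length (y axis, CPM per kilobase, log scale) in the 3 libraries of each condition (colors), with genes ordered by their mean in untreated control (x axis). P2rx4, P2ry6 and Entpd1 lead, and P2ry14 moves from 0.904 CPM per kb in untreated control to 7.78 in Ifnb1eGFP supernatant, beside P2rx7.

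Among all genes tested, those most like P2ry14 in shape, by the root mean square difference of log2 CPM centred on each gene's mean over the 12 libraries, were Clec4a3 (0.108) and Aif1 (0.109). For P2ry12 they were Bco2 (0.172) and Icosl (0.21), and for Adora2a Gm37074 (0.256) and Fndc7 (0.257). The likeness is a description over libraries that share their conditions.

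The rest of the pathway was described with 71 further genes in 9 lists, of which 52 passed the filter on low counts. For Ifnb1eGFP against eGFP supernatant 21 rose and 21 fell, and for rIFNβ against untreated control 20 rose and 20 fell, beside the shares of all genes given above. For eGFP supernatant against untreated control 0 were called by edgeR.

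Among other P2X receptors 1 of 3 tested rose and 1 fell. P2rx5 fell from 0.789 ± 0.121 CPM in eGFP supernatant (29 to 37 counts) to 0.190 ± 0.0117 CPM in Ifnb1eGFP supernatant (7 to 9 counts). Its log2 fold change was -2.03 (adjusted p = 2.5e-05 by edgeR). P2rx6 rose from 0.364 ± 0.107 to 0.593 ± 0.0971 CPM (0.70, adjusted p = 0.045), a call that was lost with DESeq2 (adjusted p = 0.15), with 4 other settings of the fit and without eGFP supernatant replicate 1 (0.083) or 3 (0.16) or Ifnb1eGFP supernatant replicate 2 (0.11) or 3 (0.13). In the list of other P2Y and related receptors 0 of 3 tested genes rose and 2 fell. The gene not called was P2ry10b (42.7 ± 1.42 CPM in eGFP supernatant and 40.7 ± 4.30 CPM in Ifnb1eGFP supernatant). P2ry1, an ADP receptor coupled to calcium release, fell from 9.98 ± 0.310 to 2.61 ± 0.252 CPM (-1.93, adjusted p = 4.8e-08), and P2ry2, the receptor for ATP and UTP, from 25.4 ± 1.66 to 13.3 ± 3.10 CPM (-0.94, adjusted p = 0.00011). ADP receptors thus moved in opposite directions, with P2ry12 and P2ry13 higher and P2ry1 lower. Adora3, the only other adenosine receptor tested, fell from 1.06 ± 0.163 CPM (35 to 47 counts) to 0.575 ± 0.0466 CPM (24 counts in each library), at -0.89 (adjusted p = 0.014). All 3 adenosine receptors tested were thus called lower by edgeR. The call of Adora2a rests on few counts and was lost with DESeq2 and without single libraries, as given above.

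Of other surface enzymes that cleave nucleotides or NAD, 1 of 5 tested rose and 2 fell. Acp3, a phosphatase that can also make adenosine from AMP, fell from 7.28 ± 1.18 to 0.748 ± 0.157 CPM (-3.28, adjusted p = 7.0e-08). Enpp1, which cleaves ATP to AMP and degrades cGAMP, fell from 15.7 ± 1.65 to 8.01 ± 0.812 CPM (-0.97, adjusted p = 4.1e-05), and Bst1, a relative of CD38, rose from 10.8 ± 0.837 to 21.4 ± 1.49 CPM (0.98, adjusted p = 1.8e-06). Of 5 relatives of Entpd1 inside the cell 2 rose and 3 fell, among them Entpd7 (log2 fold change 0.51), Entpd5 (-1.10) and Entpd4b (-0.52), whose reads can be shared with its near-identical copy Entpd4. Of 5 ATP release genes tested 1 rose and 3 fell. Panx1, the pannexin channel, fell from 34.5 ± 2.85 to 14.8 ± 0.634 CPM (-1.22, adjusted p = 7.4e-08) and the transporter Abcc4 from 24.8 ± 0.194 to 11.2 ± 1.15 CPM (-1.14, adjusted p = 4.4e-07), while Gja1, connexin 43, rose from 4.05 ± 1.504 to 11.2 ± 3.41 CPM (1.48, adjusted p = 0.0046). Of the 4 fibroblast markers Dcn (from 8.97 to 31.2 CPM, log2 fold change 1.80, adjusted p = 0.0026) and Pdgfra (from 1.62 to 5.14 CPM, 1.67, adjusted p = 0.0017) rose as well, both also with rIFNβ (1.34 and 1.17), while Col1a1 fell (-1.03, adjusted p = 0.011) and Col1a2 was at -0.08 (adjusted p = 0.88), and their part in the rise of Gja1 was not tested. The rise of Gja1 with rIFNβ (0.95, adjusted p = 0.042) was 0.60 with an adjusted p of 0.19 without rIFNβ replicate 3, and was also lost without untreated control replicate 1 (0.078) or 2 (0.14), without rIFNβ replicate 1 (0.070) and with RLE factors (0.0535).

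Of 11 tested genes of adenosine uptake and metabolism 6 rose and 3 fell, and without eGFP supernatant replicate 1 the number that fell was 1. Pnp, the phosphorylase that breaks down inosine, rose from 93.8 ± 25.6 to 509.9 ± 29.0 CPM (2.44, adjusted p = 1.1e-07) and its near-identical copy Pnp2 from 1.27 ± 0.440 to 8.60 ± 1.22 CPM (2.75, adjusted p = 5.9e-07), and how the counting split reads between them is uncertain. Slc28a2, a concentrative transporter that carries adenosine into cells, rose from 51.0 ± 4.23 to 153 ± 17.9 CPM (1.59, adjusted p = 3.2e-08). Of the 9 genes of the inflammasome that P2X7 is linked to, 8 rose and 1 fell, with a median log2 fold change of 0.73 (0.03 over all genes tested), and with rIFNβ 7 rose and 0 fell. With single libraries left out 6 to 8 rose in the former comparison, and the 1 fall was lost without eGFP supernatant replicate 1 or 2 or Ifnb1eGFP supernatant replicate 3. Il18 rose from 4.35 ± 0.363 to 19.4 ± 1.43 CPM (2.16, adjusted p = 4.2e-09), Casp4 from 20.6 ± 1.80 to 67.8 ± 6.80 CPM (1.72, adjusted p = 1.7e-08) and Casp1 from 118 ± 1.66 to 251 ± 28.2 CPM (1.09, adjusted p = 1.5e-07). These are known genes of the IFN response as well, and the lists were written with earlier results known.

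Of 10 genes of G proteins and cAMP downstream of adenosine receptors 2 rose and 5 fell. Adcy9, which makes cAMP, fell from 30.1 ± 2.92 to 15.1 ± 0.712 CPM (-0.99, adjusted p = 5.1e-05). Pde4b, which degrades it, rose from 4.80 ± 2.09 to 9.61 ± 1.65 CPM (1.00, adjusted p = 0.013), a call lost without eGFP supernatant replicate 1 (adjusted p = 0.051) or 2 (0.0503). Crem, a regulator of transcription that responds to cAMP, rose from 14.4 ± 0.970 to 23.4 ± 0.406 CPM (0.70, adjusted p = 2.1e-06). It was the only gene of the lists that differed between the sources of IFNβ, with 17.3 ± 0.716 CPM with rIFNβ (log2 fold change 0.44 for Ifnb1eGFP supernatant against rIFNβ, adjusted p = 0.016).

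**Figure D4:**
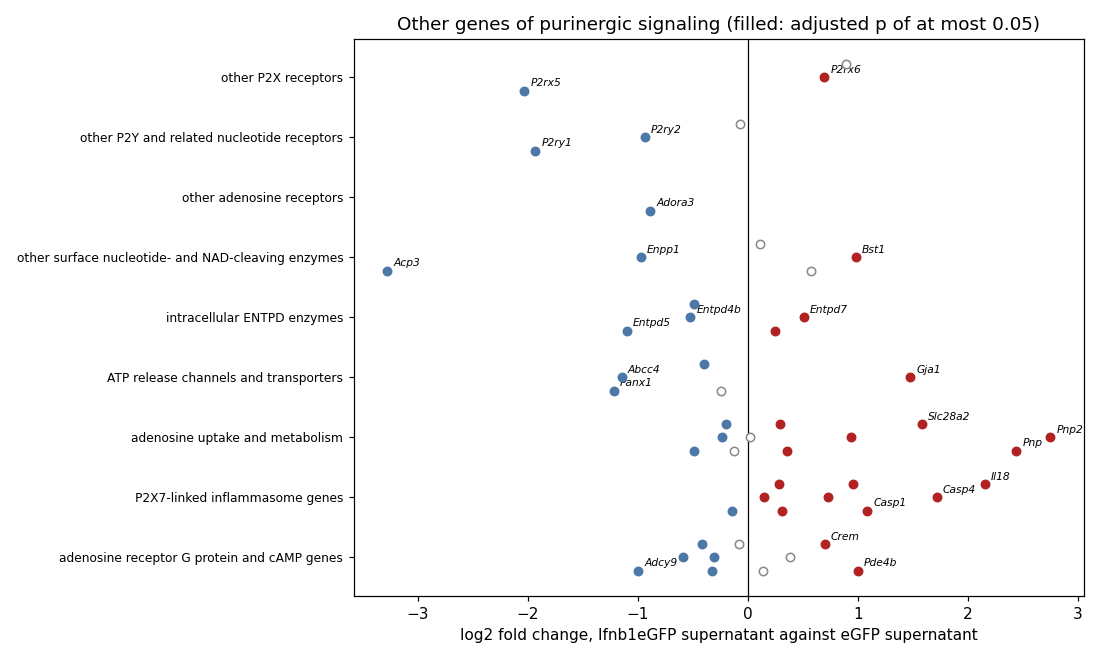
Log2 fold change for Ifnb1eGFP against eGFP supernatant (x axis) of the 52 tested genes of 9 lists (y axis), each point a gene, filled where adjusted p ≤ 0.05 (red higher, blue lower). Of the 9 inflammasome genes 8 are red, the tested P2Y genes are blue or open, and Pnp and Pnp2 lie farthest right.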

How the data were processed

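RNA of M2-like BMDM was measured in 12 libraries, 3 for each of 4 conditions, made by the authors from 600 ng of total RNA with a TruSeq Stranded Total RNA kit. The authors deposited expected counts per Ensembl gene from RSEM 1.3.3 (version per the submitters' processing notes), without normalization. The genome is named there as GRCm39 and mm10, which are different builds, and the annotation version is not given in the sources used here. Gene positions and exon lengths are those of GENCODE M39 on GRCm39, which matched 56017 of 56748 gene IDs. Expected counts were rounded to whole numbers (12% were not whole).

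The 15033 genes kept by filterByExpr were fitted with TMM factors over all 12 libraries by edgeR 4.0.16 in R 4.3.3, with Benjamini-Hochberg adjustment over all genes tested. Standard errors were approximated from the quasi-likelihood F as |log2 fold change|/√F, and the prior count was 2. The script was tested on simulated data. Exact permutation of 3 libraries against 3 cannot reach 0.05 for a single gene, so p-values come from this model alone. Libraries ranged from 31526034 to 45348457 counts, and counts of a few per library, as for Adora2a, give wide errors.

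Libraries of a condition were labelled as separate replicates. The design text counts mice, and nothing says whether libraries with the same replicate number came from the same mouse. The number was taken as a pair only if deviations from the condition means correlated above 0.1 in every pair of same-numbered libraries. All 18 correlations were positive but 13 passed 0.1, so the number was used as a block only as an alternative. Every member was named. From each pathway list the text names up to 3 called genes with the largest absolute log2 fold change for Ifnb1eGFP against eGFP supernatant, and genes called for the other comparisons. Likeness was computed for members called there with an log2 fold change past 1 either way. The members and lists were chosen with earlier results of these data known. Alternatives tried were a replicate block, RLE factors in edgeR, DESeq2 1.42.0, no filter, only the compared conditions in the fit, the thresholds of the study and each library left out. Those for the pathway lists were chosen after seeing the data.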

Additional observations from a re-analysis of the deposited data

How the results depend on the processing

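At the thresholds of the study 2 of the 10 genes were called for Ifnb1eGFP against eGFP supernatant (5.39% of all genes) and 2 for rIFNβ against untreated control (5.77%). For eGFP supernatant against untreated control 0 were, where 1 of all genes was higher and 0 lower. DESeq2 called 1 of the 10 genes between the sources of IFNβ, where it called 94 of all genes higher and 21 lower. With single libraries left out, 7 to 8 of the 10 genes were called for Ifnb1eGFP against eGFP supernatant and 7 to 8 for rIFNβ against untreated control. For eGFP supernatant against untreated control 0 to 1 were called, between the sources 0 to 1 and for the interaction 0. The shares over all genes given above are those with all libraries, and none is given here for these smaller fits. DESeq2 called 4054 genes higher and 3952 lower for Ifnb1eGFP against eGFP supernatant, RLE factors 4123 and 4101, and the main model 4520 and 3761.

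Reversed directions were limited to genes not called in the comparison at hand. For eGFP supernatant against untreated control, P2rx7 had a log2 fold change of 0.026 with no filter. Between the sources, P2rx4 had 0.009 with DESeq2, 0.009 with RLE factors, 0.004 with no filter and 0.006 with only the compared conditions. With single libraries left out, the log2 fold change of Nt5e ran from -0.21 to 1.48 for Ifnb1eGFP against eGFP supernatant, from -1.06 to 1.33 for eGFP supernatant against untreated control, from -0.84 to 0.28 between the sources and from -1.61 to 0.77 for the interaction. That of P2ry6 ran from -0.101 to 0.003 with rIFNβ and from -0.24 to 0.07 between the sources. P2rx7 ran from -0.017 to 0.008 for eGFP supernatant against untreated control and Adora2a from -0.16 to 0.34 for the interaction. Between the sources P2rx4 ran from -0.050 to 0.044, P2ry13 from -0.16 to 0.23 and P2ry14 from -0.14 to 0.07.

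The replicate number as a block left 8, 8, 1, 0 and 0 of the 10 genes called in the 5 comparisons. Among all genes tested it called 4848 higher and 4019 lower for Ifnb1eGFP against eGFP supernatant, and 4931 and 3915 for rIFNβ against untreated control. For eGFP supernatant against untreated control these counts were 89 and 33, between the sources 41 and 7, and for the interaction 0 and 0. With the block, Nt5e changed by 0.47 on the log2 scale (adjusted p = 0.29 by edgeR) and 0.88 (adjusted p = 0.066) in both IFNβ comparisons. Over 18 pairs of libraries with the same number the deviations from the condition means correlated at 0.148 on average (0.0582 to 0.252, 13 over 0.1), and over 36 pairs with different numbers at -0.0742. All 12 libraries correlated best, on average, with the libraries of their own number, a hint from the data that the labels do not explain. Depth limits Nt5e, Adora2a, P2rx5, P2rx6 and Adora3, with 3 to 47 counts per library.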
